A study of Mus musculus with 4 samples.

Results

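The genes described here are 8 genes of TNF and IL-1 signalling and its feedback, out of 41862 gene columns in the deposited tables. They were taken by name: the cytokine genes Tnf, Il1a and Il1b, the receptor antagonist gene Il1rn, the feedback genes Nfkbia, Nfkbiz and Tnfaip3, and Cd83. All 8 were measured in each of 4 single-cell libraries, made by inDrops version 3, a 3′ droplet method that counts RNA molecules by unique molecular identifiers (UMIs). The mice were C57BL6 and carried Aldh1l1CreERT2-TdTomato, a tamoxifen-inducible reporter driven by an astrocyte promoter. Their cells were sorted as TdTomato+ and LAMP+, and by the presence (TRAIL+) or absence (TRAIL-) of the death ligand TRAIL. Each gate was sampled in naive mice and in mice with EAE, giving 1 library for each of the 4 groups. EAE, experimental autoimmune encephalomyelitis, is a model of multiple sclerosis; here it was induced with 150 µg of the myelin peptide MOG35-55 in complete Freund's adjuvant and sampled at its peak. The series design gives 3 mice for each disease state; how their cells were divided among the libraries, their ages and any tamoxifen dosing are not known here. With 1 library per group, no difference below has a replicate check and none has a p-value. Intervals are exact 95% intervals and cover counting error only.

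TNF and IL-1 are inflammatory cytokines made largely by myeloid cells, and in the brain microglia are a main source. Both act through receptors that lead to the transcription factor NF-kB, which in turn switches on genes that shut the pathway down. Nfkbia encodes IkB-alpha, which holds NF-kB in the cytoplasm, Tnfaip3 encodes the ubiquitin-editing enzyme A20, and Nfkbiz encodes the nuclear protein IkB-zeta, which modulates NF-kB at some of its targets. Il1rn encodes the antagonist that occupies the IL-1 receptor without signalling. Cd83 encodes a surface protein of activated antigen-presenting cells.

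Of 12987 listed barcodes, 7899 had at least 500 UMIs and at most 20% mitochondrial UMIs. The naive libraries kept 2259 (TRAIL-) and 2229 (TRAIL+) and the EAE libraries 1597 (TRAIL-) and 1814 (TRAIL+), with median depths of 949 to 1908 UMIs. The labels call the cells astrocytes, but 196 of the 7899 (2.48%) clustered as astrocyte-like by marker genes, while 4129 (52.3%) were microglia-like, 1712 (21.7%) endothelial-like and 1009 (12.8%) pericyte-like. Clustering used none of the 8 genes. The microglia-like class is therefore where most values below come from, with 320 (TRAIL-) and 1880 (TRAIL+) naive cells and 302 (TRAIL-) and 1627 (TRAIL+) EAE cells. Wherever 4 values stand in a row, they keep this order: naive TRAIL-, then naive TRAIL+, then EAE TRAIL-, then EAE TRAIL+. The sex-linked transcripts differed by disease state: Xist stood at 9.35 to 10.6 CPM (a gene's UMIs scaled to a sum of 1000000) in the naive libraries and at 663 to 1095 in the EAE libraries, and Ddx3y at 132 to 165 and 3.46 to 3.92. Disease and this difference cannot be told apart in any comparison of EAE with naive. The transcript of TRAIL itself, Tnfsf10, went against the gate names: it stood at 100.4 CPM (TRAIL-) and 4.401 (TRAIL+) in the naive libraries and at 48.6 (TRAIL-) and 17.3 (TRAIL+) in the EAE libraries. Endothelial-like cells carried most of its UMIs in the TRAIL- libraries, but in microglia-like cells it was also lower in TRAIL+, on 10 to 54 UMIs a library (19.8, 4.84, 33.4 and 16.5 CPM). The sort was on surface protein, and TRAIL+ and TRAIL- below are the labels of the libraries. Of 7716 distinct kept barcode sequences, 182 occurred in more than 1 library.

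The bases just before a RefSeq start are shown for 3 of the genes. The reason is that Nfkbia and Tnfaip3 are textbook targets of NF-kB and were detected together with Tnf in the cells described below. The sequences are RefSeq promoters of GRCm38.p6, given 5′ to 3′ on the gene's strand from 150 bases before the start to the base before it, with matches to the 10-base NF-kB consensus site in capitals.
Nfkbia, chr12:55492648-55492797, minus strand: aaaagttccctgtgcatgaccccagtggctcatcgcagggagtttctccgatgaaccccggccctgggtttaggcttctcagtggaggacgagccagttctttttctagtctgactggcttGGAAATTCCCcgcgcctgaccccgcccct
Tnfaip3, chr10:19015411-19015560, minus strand: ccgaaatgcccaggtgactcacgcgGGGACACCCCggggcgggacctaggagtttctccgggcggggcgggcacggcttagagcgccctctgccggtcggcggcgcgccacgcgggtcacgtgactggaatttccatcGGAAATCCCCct
Tnf, chr17:35202008-35202157, minus strand: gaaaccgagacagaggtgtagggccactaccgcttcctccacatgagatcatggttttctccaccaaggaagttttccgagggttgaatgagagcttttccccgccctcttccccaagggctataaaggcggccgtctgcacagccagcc
Nfkbia had 1 match, at positions -29 to -20 from the start, and Tnfaip3 had 2, at -125 to -116 and -12 to -3. The Tnfaip3 start used is a RefSeq start inside the gene's GENCODE span, which ends at 19015657. The Tnfaip3 bases shown thus lie within that span, not upstream of it. Both strands were searched over the 250 bases before each start. The same windows of Tnf, Il1a, Il1b and Il1rn held no match, and neither did the window of a second Tnfaip3 start. No promoter sequence was available for Nfkbiz or Cd83, so these were not searched. Such a match was present in 2379 of 32817 mouse promoter windows (7.25%), and it describes the letters only. On GRCm38, Tnf lies at chr17:35199381-35202007, Il1a at chr2:129299610-129309972, Il1b at chr2:129364570-129371139, Il1rn at chr2:24336853-24351494, Nfkbia at chr12:55489410-55492647, Nfkbiz at chr16:55811375-55838899, Tnfaip3 at chr10:19000910-19015657 and Cd83 at chr13:43784775-43803132, all protein-coding genes of the GENCODE annotation.

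The 8 genes were not all distributed alike over cell classes. Tnf and Il1a were mainly microglial: microglia-like cells carried 91.4%, 96.0%, 85.9% and 97.6% of the Tnf UMIs of the 4 libraries, and 88.3% to 97.1% of the Il1a UMIs. Microglia-like cells also carried most of the Nfkbiz, Tnfaip3 and Cd83 UMIs in each library. For Nfkbiz the shares were 79.4%, 95.6%, 76.8% and 95.9%. In EAE TRAIL- these cells carried 839 of 1150 Tnfaip3 UMIs and 1960 of 2498 Cd83 UMIs. Il1b was shared with the monocyte-like cluster, which carried 64.7% (TRAIL-) and 32.7% (TRAIL+) of its UMIs in EAE. The naive members of that cluster, 19 and 23 cells, carried 24.3% and 5.72%, but they had more neutrophil than monocyte marker UMIs and are not set against EAE. Il1rn in EAE was mainly in monocyte-like cells, with 89.4% of its UMIs in TRAIL- and 75.2% in TRAIL+. Nfkbia was spread most widely, and endothelial-like cells carried 37.9% of its UMIs in the naive and 23.8% in the EAE library of the TRAIL- gate. Such shares follow the number and depth of the cells of each class as well as the level per cell.

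**Figure D1:**
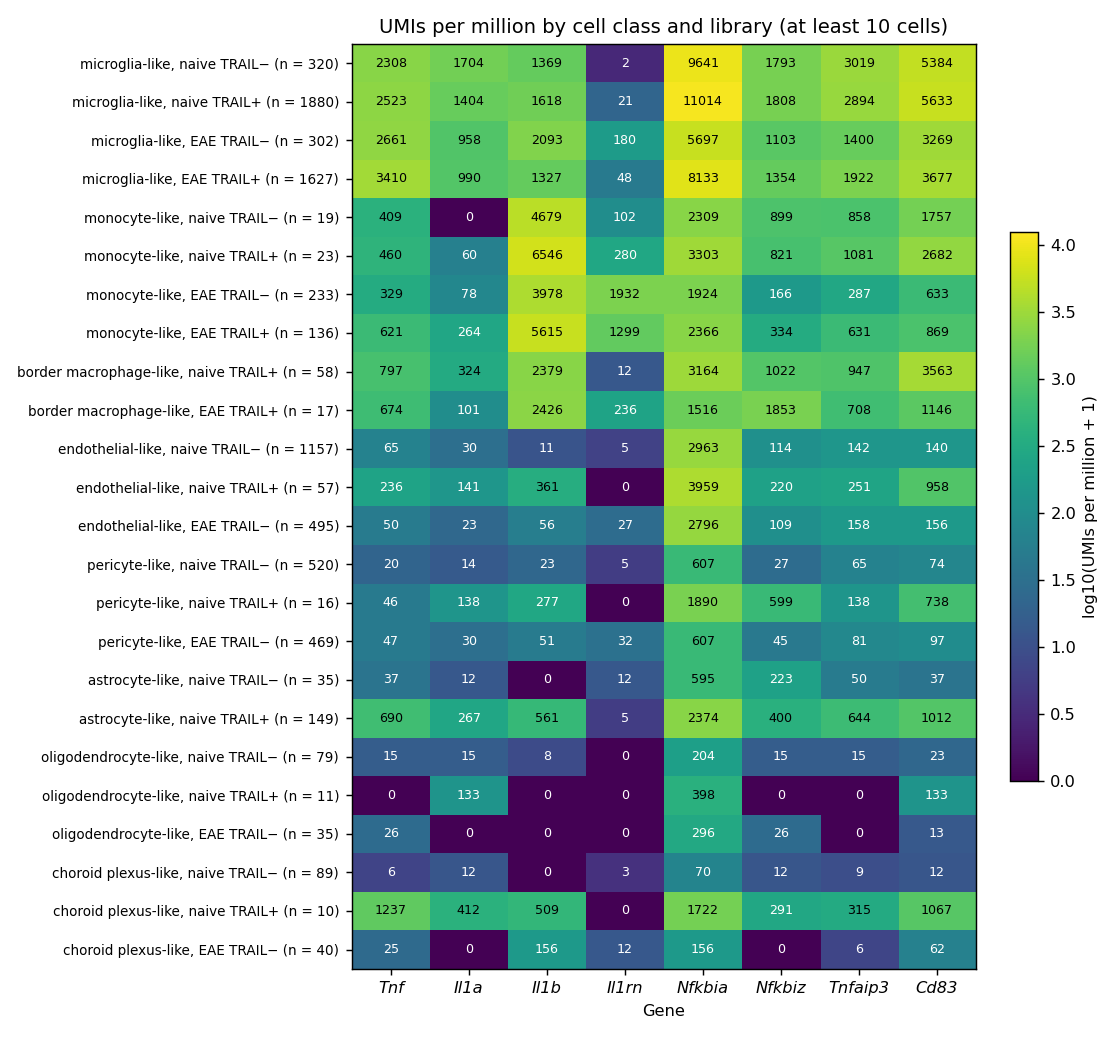
CPM of the 8 genes in summed cells of each class and library with at least 10 cells; colour is log10 of the level plus 1 and the printed value is the level. Tnf and Il1a were highest in the microglia-like rows, Il1b in the monocyte-like rows, and Nfkbia reached 2796 to 3959 in the endothelial-like rows.

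Among microglia-like cells, Tnf was higher in EAE while Il1a was lower, in both gates. Tnf stood at 2308 (TRAIL-) and 2523 CPM (TRAIL+) in the naive libraries, and at 2661 (TRAIL-) and 3410 CPM (TRAIL+) in the EAE libraries. Both EAE libraries were above both naive libraries, and EAE over naive was 1.35-fold (1.31 to 1.39) in TRAIL+ and 1.15-fold (1.07 to 1.24) in TRAIL-. With the class set by each barcode's own marker UMIs instead (65 and 71 TRAIL- cells), the log2 ratio in TRAIL- was -0.13 (-0.36 to 0.10), so its direction turned. Il1a, the gene of the IL-1 form that is active without cleavage, stood at 1704, 1404, 958 and 990 CPM in the same order. Both EAE libraries were below both naive ones, by 1.42-fold (1.35 to 1.48) in TRAIL+ and 1.78-fold (1.60 to 1.98) in TRAIL-. Il1b, whose product is cleaved by caspase-1 before release, stood at 1369, 1618, 2093 and 1327 CPM. Here the groups did not line up by disease: EAE TRAIL- was the highest library, while EAE TRAIL+ and naive TRAIL- had overlapping intervals at the low end. EAE was 1.53-fold higher (1.39 to 1.68) in TRAIL- and 1.22-fold lower (1.17 to 1.27) in TRAIL+. With the class set by each barcode's own markers, the log2 ratio of Il1b in TRAIL- also turned, to -0.22 (-0.60 to 0.17).

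**Figure D2:**
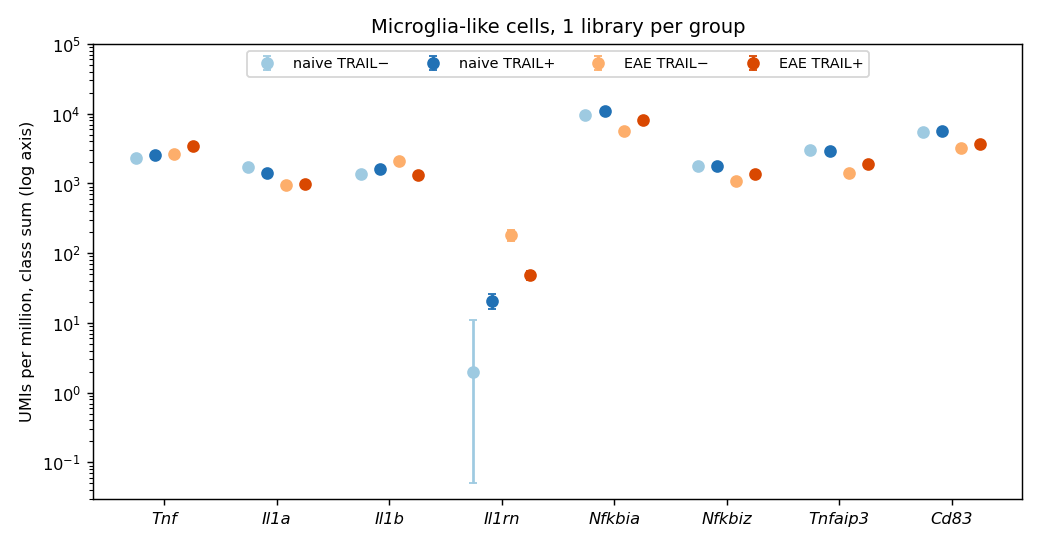
CPM (log axis) of each gene in the summed microglia-like cells of each library; points are 1 library each and bars are exact Poisson 95% intervals. In these cells the EAE points lie above the naive points for Tnf and Il1rn and below them for Il1a, Nfkbia, Nfkbiz, Tnfaip3 and Cd83.

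Il1rn was scarce in microglia-like cells, with 1, 64, 108 and 157 UMIs, or 1.98, 20.7, 180 and 47.9 CPM. Both EAE libraries were above both naive libraries, and the antagonist was highest in EAE TRAIL-. In TRAIL-, EAE over naive was 90.9-fold on a single naive UMI, with a counting interval of 16.0 to 3625. In TRAIL+ it was 2.32-fold (1.73 to 3.15). Il1rn also came from few cells: in EAE TRAIL-, 97.2% of its UMIs lay in the 10% of microglia-like cells with most of them. Monocyte markers summed to 303, 450, 772 and 654 CPM in the microglia-like cells of the 4 libraries, a part in the Il1rn values that was not tested.

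The 3 feedback genes and Cd83, unlike Tnf, were lower in EAE in both gates. Nfkbia stood at 9641 (TRAIL-) and 11014 CPM (TRAIL+) in the naive libraries, and at 5697 (TRAIL-) and 8133 CPM (TRAIL+) in the EAE libraries. EAE was lower by 1.35-fold (1.33 to 1.38) in TRAIL+ and 1.69-fold (1.62 to 1.77) in TRAIL-. Tnfaip3 stood at 3019, 2894, 1400 and 1922 CPM, and was lower by 1.51-fold (1.46 to 1.56) and 2.16-fold (1.98 to 2.35). Nfkbiz, at 1793, 1808, 1103 and 1354 CPM, was lower by 1.34-fold (1.28 to 1.39) and 1.63-fold (1.47 to 1.80). Cd83, at 5384, 5633, 3269 and 3677 CPM, was lower by 1.53-fold (1.497 to 1.57) and 1.65-fold (1.55 to 1.75). For each of these genes both EAE libraries lay below both naive libraries, and the difference was larger in TRAIL-; whether the gates differ was not tested.

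**Figure D3:**
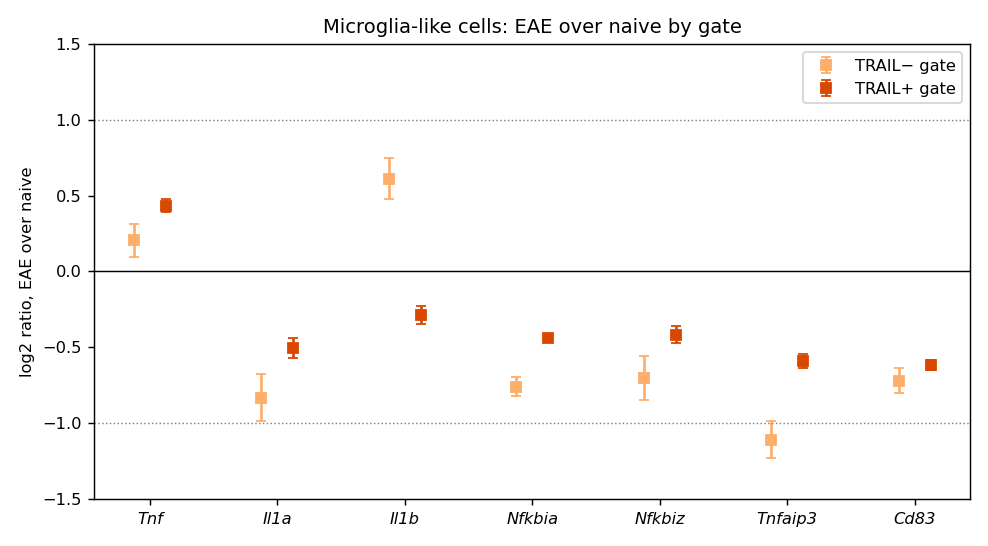
log2 ratio of EAE over naive in microglia-like cells of each gate for 7 of the genes (Il1rn is left out for its single naive TRAIL- UMI); bars are exact 95% counting intervals and dotted lines mark 2-fold. Tnf lies above 0 in both gates, Il1b on opposite sides, and the other 5 below 0.

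Tnf was higher and Nfkbia and Tnfaip3 lower in EAE, so the ratio of Tnf to each had to differ more than either level. The ratios restate those differences and are not a further result. For every 100 Nfkbia UMIs, the naive libraries had 23.9 (TRAIL-, 22.4 to 25.5) and 22.9 (TRAIL+, 22.4 to 23.5) Tnf UMIs. The EAE libraries had 46.7 (TRAIL-, 44.0 to 49.6) and 41.9 (TRAIL+, 41.0 to 42.9). For every 100 Tnfaip3 UMIs there were 76.4, 87.2, 190 and 177 Tnf UMIs in the same order. For both ratios the EAE libraries lay above the naive libraries with no overlap of intervals. The ratios do not depend on how libraries are scaled. They compare counts of transcript ends, not of protein.

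Most of these differences were smaller than 2-fold, the size used to count genes as higher or lower. In TRAIL+ microglia-like cells 3212 genes averaged 50 CPM or more, and of these 2.43% were 2-fold or more higher in EAE and 0.436% lower by as much. None of the 7 of the 8 genes that passed this floor was among either; Il1rn did not pass it. Their median log2 ratio was -0.44, against -0.05 over all genes compared. In TRAIL-, 7.93% of 3266 genes were higher by this measure and 8.33% lower. Il1rn was among the former and Tnfaip3 among the latter, so 1 of 8 each, which is near the background. The median was -0.71, against -0.08 over all genes compared.

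The makeup of the class also differed with disease. A cluster led by Cd74 and MHC class II genes held 62.3% of the microglia-like cells of EAE TRAIL- and 42.8% of EAE TRAIL+, but 1.01% in naive TRAIL+. In the pair of clusters that all 4 libraries fill, EAE over naive for Tnf was 1.28-fold in TRAIL+ and 1.19-fold in TRAIL-. In the same clusters Nfkbia was lower by 1.21-fold and 1.44-fold, Tnfaip3 by 1.43-fold and 1.73-fold, and Cd83 by 1.66-fold and 1.77-fold. Nfkbiz was lower by 1.20-fold and 1.21-fold, so its difference was not larger in TRAIL- there, unlike in the whole class (1.34-fold and 1.63-fold). Il1b was 1.53-fold lower in TRAIL+ and 1.41-fold higher in TRAIL-, and Il1rn was 1.66-fold higher in TRAIL+. The direction of each was thus as in the whole class, while Tnfaip3 in TRAIL- and Il1rn in TRAIL+ no longer reached 2-fold. A list of 19 immediate early and stress genes, which respond to cell handling among other stimuli, was lower in EAE along with the feedback genes. They summed to 38051, 36981, 19365 and 27357 CPM in the 4 libraries, and their part in the differences was not tested. Of the 19, 0 were at least 2-fold higher and 9 lower in TRAIL- (Fos by 2.92-fold, Jun by 3.00-fold), and 2 higher (Hspa1a, Hspa1b) and 1 lower (Jund) in TRAIL+. Hspa1a and Hspa1b are near-identical copies, so their separate counts are uncertain. The median log2 ratio of the list was -0.91 in TRAIL- and -0.52 in TRAIL+.

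Within EAE, TRAIL+ microglia-like cells had more of the feedback genes and less of the IL-1 pair Il1b and Il1rn than TRAIL- cells. TRAIL+ over TRAIL- was 1.43-fold (1.38 to 1.48) for Nfkbia, 1.37-fold (1.28 to 1.48) for Tnfaip3, 1.23-fold (1.13 to 1.34) for Nfkbiz and 1.28-fold (1.22 to 1.35) for Tnf. Il1b was 1.58-fold lower (1.48 to 1.68) and Il1rn 3.76-fold lower (2.91 to 4.83). Il1a did not differ beyond its interval (1.03-fold, 0.946 to 1.13). The MHC class II-led cluster held 62.3% of the EAE microglia-like cells in TRAIL- and 42.8% in TRAIL+. In the clusters common to all libraries (907 TRAIL+ and 114 TRAIL- cells), Nfkbiz was nearly level, at 1520 and 1490 CPM. There Tnfaip3 stood at 2044 and 1736, Nfkbia at 9180 and 6709 and Tnf at 3251 and 2767. Il1b stood at 1048 and 1790 and Il1rn at 31.1 and 82.2. The part of makeup in the gate ratios was not tested. Of 3217 genes compared, 0.777% were 2-fold or more higher and 2.02% lower. Of the 8 genes 0 were higher and 1, Il1rn, lower. The shares over all genes depended on scaling: they were 3.64% and 0.791% with edgeR TMM factors, and 1.21% and 1.63% with DESeq2 size factors. Immediate early genes were higher in EAE TRAIL+ than TRAIL- (Fos 3543 against 1933 CPM, 27357 against 19365 over the list), and their part was not tested. Outside the 8 genes, the target genes Ccl5 and Bcl2a1d were 2.33-fold and 2.26-fold lower in TRAIL+, and Hspa1a was 2.11-fold higher. No other listed gene that passed the 50 CPM floor was 2-fold apart. In naive mice no listed gene that passed the floor was. Listed genes under the floor, such as Tnfsf10, were not counted. Of 3178 genes, 0.283% were higher and 0.85% lower, and none of the 7 genes that passed the floor was either. Their ratios ran from 1.21-fold lower for Il1a to 1.18-fold higher for Il1b.

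Over all kept barcodes the gates differed far more. Microglia-like cells were 1880 of 2229 TRAIL+ barcodes in naive mice and 1627 of 1814 in EAE, against 320 of 2259 and 302 of 1597 TRAIL- barcodes. In naive mice the 7 genes compared were all at least 2-fold higher in TRAIL+, against 14.6% of 3848 genes, and 0 were lower, against 22.7%. In EAE 6 of 8 were at least 2-fold higher, against 11.7% of 3647 genes; Il1rn was 2.97-fold lower, against 17% of genes, and Il1b was 1.18-fold higher. For EAE over naive, Il1rn alone was at least 2-fold higher in TRAIL+ (7.90-fold, against 3.53% of 3317 genes), with none lower (1.9% of genes). In TRAIL-, Il1rn and Il1b were higher (79.8-fold and 4.33-fold, against 6.93% of 4057 genes) and none was lower (5.32%). In these sums a change in cell numbers and a change per cell cannot be told apart.

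Monocyte-like cells, the blood-derived phagocytes that enter the brain in EAE, carried the IL-1 pair. Il1b stood at 3978 CPM in EAE TRAIL- (233 cells) and 5615 in EAE TRAIL+ (136 cells), and Il1rn at 1932 and 1299. For every 100 Il1b UMIs there were 48.6 (45.3 to 52.1) Il1rn UMIs in TRAIL- and 23.1 (21.0 to 25.5) in TRAIL+, against 8.61 and 3.61 in the microglia-like cells of these libraries. The antagonist was thus higher relative to the cytokine in monocyte-like than in microglia-like cells, in both gates. Tnf was low there, at 329 and 621 CPM, as were Il1a (77.9 and 264), Nfkbiz (166 and 334) and Tnfaip3 (287 and 631). Of 3161 genes, 5.41% were 2-fold or more higher in TRAIL+ and 6.45% lower. Of the 8, Il1a, Nfkbiz and Tnfaip3 were higher, by 3.38-fold (2.38 to 4.88), 2.02-fold (1.54 to 2.64) and 2.20-fold (1.80 to 2.68), and 0 were lower. Microglia markers summed to 10924 CPM in these TRAIL+ cells and 2993 in the TRAIL- cells, and immediate early genes to 13452 and 8292 CPM. Their part in these 3 ratios was not tested. The 19 and 23 naive cells of the class carried neutrophil markers at 41128 and 48885 CPM, against 384.5 or less in EAE, so their levels (Il1b 4679 and 6546, Il1rn 102 and 280 CPM) were not compared with EAE.

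Border-associated macrophage-like cells, the resident macrophages of the brain's coverings, numbered 58 in naive TRAIL+ and 17 in EAE TRAIL+. In naive TRAIL+ they had Il1b at 2379 CPM, above the microglia-like cells of that library (1618), and Tnf at 797, Nfkbia at 3164 and Cd83 at 3563, all below them. In the 17 EAE cells Il1b was 2426 CPM and Il1rn rested on 7 UMIs.

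Nfkbia was the gene of the 8 that stood high outside myeloid cells. In endothelial-like cells it reached 2963 CPM in naive TRAIL- and 2796 in EAE TRAIL-, and 60.9% and 60.6% of these cells had a Nfkbia UMI after each cell was thinned to 500 UMIs. In these cells Tnf stood at 65.4 and 50.2 CPM and Tnfaip3 at 142 and 158. EAE over naive for Nfkbia was 1.06-fold lower, with an interval that includes 1 (0.998 to 1.13). Of 3629 genes, 2.2% were 2-fold or more higher and 2.65% lower in EAE; none of the 5 genes that passed the floor was either. Pericyte-like cells had less Nfkbia, 607 CPM in both TRAIL- libraries. In naive TRAIL-, choroid plexus-like cells had 69.9 CPM and oligodendrocyte-like cells 204.

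Tnf UMIs were also found in cells of other classes. They were present in 0.962% of pericyte-like cells of naive TRAIL- after thinning, at a median depth of 799.5 UMIs before it, against 43.1% of microglia-like cells (median 1508). In naive TRAIL+, a library made up mostly of microglia-like cells, the astrocyte-like cells had 690 CPM of Tnf, 561 of Il1b and 2374 of Nfkbia, against 37.2, 0 and 595 in the 35 astrocyte-like cells of naive TRAIL-. The 10 choroid plexus-like cells of naive TRAIL+ likewise had 1237 CPM of Tnf, against 5.83 in the 89 of naive TRAIL-. Microglia markers summed in astrocyte-like cells to 8732 CPM in naive TRAIL+ and 1363 in naive TRAIL-. The part of microglial RNA in the astrocyte-like values was not tested, so no level of the 8 genes is ascribed to astrocytes.

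Within single microglia-like cells, the feedback genes and Cd83 were found more often in cells with a Tnf UMI than in cells without one. After thinning, 43.1% and 53.9% of naive cells (TRAIL- and TRAIL+) and 43.7% and 55.4% of EAE cells had a Tnf UMI. In EAE TRAIL+, 57.0% (53.7 to 60.2) of the cells with a Tnf UMI also had a Tnfaip3 UMI, against 30.9% (27.6 to 34.4) of the cells without one. In EAE TRAIL- the shares were 46.2% and 17.6%, in naive TRAIL- 71.7% and 47.8%, and in naive TRAIL+ 65.1% and 54.6%. For Nfkbia the EAE shares were 92.0% and 69.5% (TRAIL+) and 86.4% and 47.6% (TRAIL-). In naive mice they were 93.5% and 80.8% (TRAIL-) and 96.6% and 88.3% (TRAIL+). The intervals of cells with and without Tnf did not overlap for Nfkbia, Nfkbiz, Tnfaip3 or Cd83 in any of the 4 libraries. The largest gap between the shares was in EAE TRAIL- for each of these genes.

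Csf1r and Ctss, microglial genes outside the pathway lists, had overlapping intervals in the 2 kinds of cell, Ctss in all 4 libraries and Csf1r in 3. In naive TRAIL+, where Csf1r was about as widely detected as Nfkbia, its shares were 90.7% with and 91.7% without Tnf. In EAE TRAIL- Csf1r was found in 80.3% (72.5 to 86.7) of cells with Tnf and 64.7% (57.0 to 71.9) of the others, so a gap there was not limited to the feedback genes. The observed share of cells with both genes, divided by the product of the single shares, was 1.23, 1.08, 1.53 and 1.26 for Tnf and Tnfaip3. This ratio cannot pass a ceiling set by the more widely detected gene, which was 1.72, 1.66, 2.29 and 1.80 for Tnfaip3 but only 1.16, 1.08, 1.55 and 1.22 for Nfkbia, so it is not compared between genes. Within the MHC class II-led cluster alone, Tnfaip3 was found in 44.9% and 15.5% of cells with and without Tnf in EAE TRAIL-, and in 59.95% and 26.6% in EAE TRAIL+. Within the clusters common to all libraries the shares were 48.1% and 21.7%, and 54.9% and 34.1%.

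**Figure D4:**
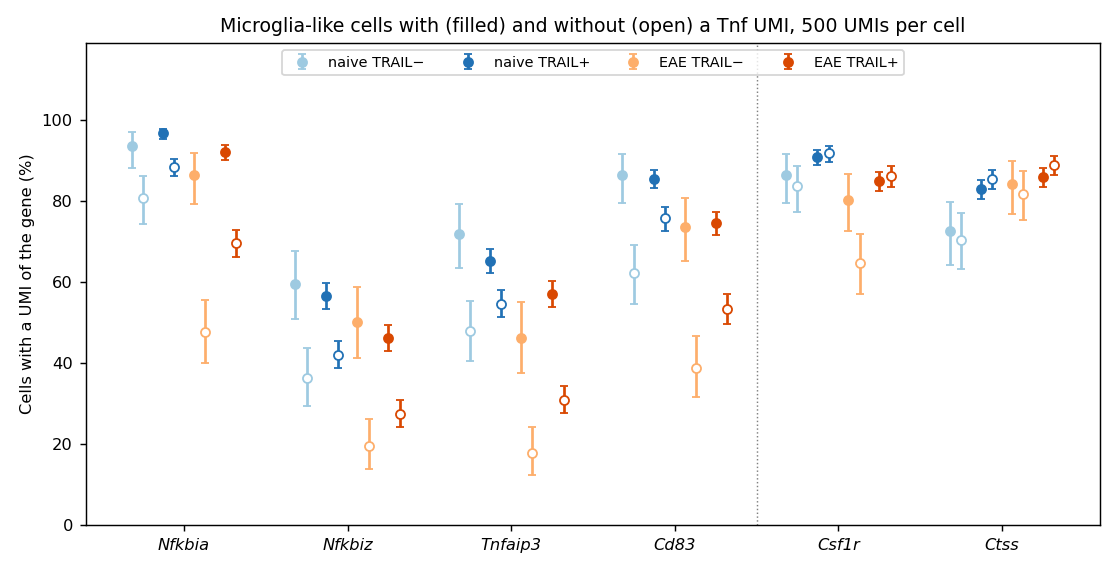
Percent of microglia-like cells with a UMI of each gene among cells with (filled) and without (open) a Tnf UMI, after thinning to 500 UMIs; bars are exact 95% binomial intervals. For the feedback genes and Cd83 (left of the dotted line) the filled points lie above the open ones in all 4 libraries, and for Csf1r they do so beyond the intervals in EAE TRAIL- (80.3% against 64.7%).

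Nfkbia and Tnfaip3 transcripts were more numerous in cells with more Tnf UMIs. In EAE TRAIL+, Nfkbia averaged 2.72 UMIs in the 725 cells without a Tnf UMI, 4.22 in the 317 cells with 1, and 5.77 in the 585 cells with 2 or more. The means were 1.24, 3.51 and 5.69 for EAE TRAIL-. In naive mice they were 3.85, 5.61 and 6.75 for TRAIL- and 4.80, 5.73 and 7.27 for TRAIL+. The increase was present in each library, and the gap between EAE and naive was widest in the cells without Tnf. Tnfaip3 averaged 0.552, 0.984 and 1.57 UMIs in EAE TRAIL+ and 1.26, 1.44 and 1.84 in naive TRAIL+. Nfkbiz averaged 0.417, 0.697 and 0.911 in EAE TRAIL+, 0.294, 0.702 and 1.000 in EAE TRAIL-, and 0.706, 1.04 and 1.07 in naive TRAIL+. In naive TRAIL- Nfkbiz averaged 0.599, 1.33 and 1.05. Only in EAE TRAIL+ did it increase from 1 Tnf UMI to 2 or more beyond its intervals. Csf1r, the receptor gene on which microglia depend for survival, averaged 2.47, 2.43 and 2.27 in EAE TRAIL+, 1.54, 2.83 and 1.88 in EAE TRAIL-, 2.29, 2.22 and 2.46 in naive TRAIL- and 2.87, 2.75 and 2.49 in naive TRAIL+. It showed no common direction over the libraries. The immediate early gene Fos averaged 1.62, 1.84 and 1.88 in EAE TRAIL+ and 0.565, 1.21 and 1.47 in EAE TRAIL-, against 2.52, 2.49 and 2.59 in naive TRAIL+ and 3.04, 2.96 and 2.55 in naive TRAIL-. Fos was thus higher in cells with Tnf in both EAE libraries and in neither naive library beyond its intervals, and its part in the co-detection was not tested.

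**Figure D5:**
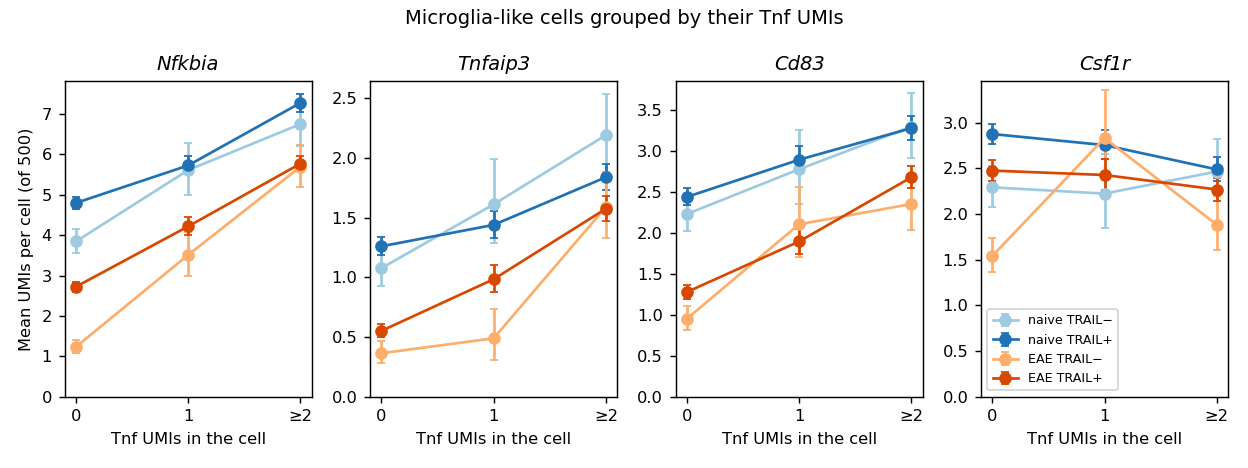
Mean UMIs per cell (of 500 after thinning) of Nfkbia, Tnfaip3, Cd83 and Csf1r in microglia-like cells with 0, 1 or at least 2 Tnf UMIs; bars are exact Poisson 95% intervals. Nfkbia, Tnfaip3 and Cd83 increase from left to right in each library, and Csf1r shows no common direction.

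The IL-1 genes were found together as well. In EAE TRAIL+ microglia-like cells, 38.8% of cells with an Il1a UMI also had an Il1b UMI, against 23.6% of the others, a ratio to the product of 1.37 (1.19 to 1.56). It was 1.75 in naive TRAIL-, 1.36 in naive TRAIL+ and 1.41 in EAE TRAIL-. Nfkbia was found in 85.2% of Il1b-positive and 80.7% of other cells in EAE TRAIL+, and in 95.8% and 91.6% in naive TRAIL+. These gaps were smaller than those for Tnf and Nfkbia in the same libraries, and in EAE TRAIL+ the intervals overlap. In monocyte-like cells, the cytokine Il1b and its antagonist Il1rn were detected together in 27.9% (TRAIL+) and 25.3% (TRAIL-) of the EAE cells. In TRAIL+, 43.2% (32.7 to 54.2) of Il1b-positive cells had an Il1rn UMI, against 14.6% (6.07 to 27.8) of the others. In TRAIL- the shares were 48.4% (39.2 to 57.6) and 43.2% (33.9 to 53.0), whose intervals overlap.

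The other genes of the pathway were compared between EAE and naive in microglia-like cells, where 2.43% of all genes were 2-fold or more higher and 0.436% lower in TRAIL+, and 7.93% and 8.33% in TRAIL-. The 5 NF-kB subunit genes (Rela, Relb, Rel, Nfkb1, Nfkb2) summed to 996, 892, 999 and 844 CPM, and none was 2-fold apart in either gate (median log2 ratio 0.0042 in TRAIL+ and 0.13 in TRAIL-). Of 12 receptors, 5 passed the floor in TRAIL+, none of them 2-fold apart; in TRAIL- 6 passed, with Tlr2 2.39-fold higher and Tlr4 2.20-fold lower in EAE. Of 17 adaptors and kinases, 8 passed in each gate, with Map3k8 2.07-fold lower in TRAIL-. Among 19 other inhibitors, 12 passed in TRAIL+ and 13 in TRAIL-, and 1 was 2-fold apart: Dusp1, a phosphatase of MAP kinases, 2.23-fold lower in TRAIL-. Zfp36, whose product destabilises Tnf mRNA, stood at 6906, 7219, 4536 and 6227 CPM, lower in EAE as were Nfkbia and Tnfaip3. Of 24 other NF-kB target genes, 18 passed in each gate. In EAE 2 were at least 2-fold higher in TRAIL+ (Ccl5, 16.9-fold, and Cxcl10, 2.08-fold) and 4 in TRAIL- (Ccl5, Csf1, Cxcl10 and Ptgs2), with none lower, so 11.1% and 22.2% of those compared. In the clusters common to all libraries none of 17 was 2-fold apart in TRAIL+, and in TRAIL- 1 was higher (Csf1) and 1 lower (Vcam1). Of 12 ligand and processing genes, Pycard, an inflammasome adaptor, was 1.84-fold higher in TRAIL+ and 2.41-fold higher in TRAIL-, while the inflammasome sensor Nlrp3 was lower by 1.49-fold and 2.38-fold.

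Receptor genes were spread over more cell classes than the cytokines. Tnfrsf1a, the general TNF receptor, stood at 214 to 232 CPM in microglia-like cells of the 4 libraries, 110 and 151 in endothelial-like cells of naive and EAE TRAIL-, and 185 and 320 in pericyte-like cells. Tnfrsf1b, the receptor found mainly on immune cells, was 168 to 244 CPM in microglia-like and 245 to 423 in EAE monocyte-like cells, but 0 and 2.02 in pericyte-like cells. Il1r1, the signalling IL-1 receptor, was highest in vascular cells, at 22.4 and 68.1 CPM in endothelial-like and 49.6 and 80.9 in pericyte-like cells of naive and EAE TRAIL-, against 2.90 to 26.7 in microglia-like cells. The decoy receptor Il1r2 reached 43.8 and 26.1 CPM in monocyte-like cells of EAE TRAIL- and TRAIL+. Il1rap, the shared co-receptor, reached 287 CPM in the 79 oligodendrocyte-like cells of naive TRAIL- and 530 in the 11 of naive TRAIL+, the latter on 8 UMIs.

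Over 15 class-by-library sums with at least 50 cells, the genes outside the set with the pattern most like each of the 8 were found among 3997 genes by the correlation of log2(CPM + 10). These sums share libraries, cell classes and free RNA, and the correlations are a description. Tnf was most like the chemokine genes Ccl3 (r = 0.99) and Ccl4 (0.99) and Rasgef1b (0.99). Tnfaip3 was most like Dusp2 (0.99), Ccl4 (0.98) and Ccl3 (0.98), Nfkbiz like Dusp2 (0.98), Ccl4 (0.98) and Kctd12 (0.98), and Cd83 like Ccl4 (0.99), Ssh2 (0.99) and Csf1r (0.98). Nfkbia was most like Zfp36 (0.99), Junb (0.99) and Ccnl1 (0.98). The microglial gene P2ry13 (0.98) and Cd37 (0.98) were among the genes most like Il1a. Il1b was most like the myeloid genes Tyrobp (0.99), Lcp1 (0.99) and Cd86 (0.98), and Il1rn was most like Ms4a4c (0.98), Cxcl9 (0.97) and C3 (0.97).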

How the data were processed

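Per the submitters' processing notes, the authors aligned reads with Bowtie to GRCm38; its version and later steps are not known here. Values are the authors' UMI counts for each barcode and gene, deposited without scaling. The 8 genes and all lists were chosen with earlier results of these data known. Barcodes with at least 500 UMIs and at most 20% mitochondrial UMIs were clustered with scanpy 1.11.5 (2000 variable genes, 30 components, 15 neighbours, Leiden resolution 1), leaving out the 8 genes, the pathway lists and mitochondrial genes. Clusters were named from 17 marker lists by the markers among their 50 leading genes; 1 cluster of 26 barcodes stayed unnamed. Doublets were not removed; Scrublet called 77 of 7899 barcodes. Counts were summed per class and library and divided by their total (CPM), with exact Poisson intervals; ratios, with Clopper-Pearson intervals, used classes of at least 50 cells. Genes were compared at a mean of at least 50 CPM and counted at 2-fold. A count of 0 was set to a floor of 3 counts. Shares and co-detection used cells thinned to 500 UMIs, with binomial Clopper-Pearson intervals. Named were the 8 genes, the 5 receptors of TNF and IL-1, up to 4 genes of each pathway list with the largest ratio, and the 3 genes most like each of the 8; Zfp36 and genes named for EAE over naive in TRAIL- were chosen after their values were seen. Scaling alternatives used edgeR 4.0.16 and DESeq2 1.42.0 size factors. The ratio and thinning steps were tested on simulated data. A comparator gene is not reported here.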

Additional observations from a re-analysis of the deposited data

Results flagged for a closer look

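Il1b in microglia-like cells differed between EAE and naive in opposite directions in the gates: the log2 ratio was -0.29 in TRAIL+ and 0.61 in TRAIL-, and both counting intervals leave out 0. With the class set by each barcode's own marker UMIs the TRAIL- value was -0.22 (-0.60 to 0.17). The difference between the gates was not tested, since each gate has 1 library per disease state.

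The barcodes under 500 UMIs, which entered no comparison, also carried Tnf. It stood at 272 CPM in the 1421 barcodes of naive TRAIL-, 1709 in the 1422 of naive TRAIL+, 495 in the 1180 of EAE TRAIL- and 2370 in the 978 of EAE TRAIL+. Within each gate the EAE library was above the naive one, as in the kept barcodes.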

How the results depend on the processing

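No paired analysis was possible because each group has 1 library. Of 184 recomputed counts of genes past the fold, 174 stayed within 1.5 times of the reported count. In microglia-like cells the reported counts were all 0 or 1, and a 0 that stayed 0 was scored as unchanged. Such counts could hardly move, so 174 of 184 says little about stability. In microglia-like cells at 1.5-fold, EAE over naive gave 2 lower in TRAIL+ (Tnfaip3, Cd83, against 5.51% of all genes), and in TRAIL- 2 higher (Il1b, Il1rn, against 19.2%) and 5 lower (against 21.6%); TRAIL+ over TRAIL- in EAE gave 2 lower (against 8.52%). Over all barcodes 1 (Cd83) was lower in EAE TRAIL+ than naive (against 6.99%). Without the filter on low values, 1 gene (Il1rn) was higher in EAE over naive in TRAIL+ (against 10.1%) and 1 (Il1rn) in TRAIL+ over TRAIL- in naive mice (against 3.68%). With the class set by each barcode's own marker UMIs relative to the list's median, which gave 644 cells in place of 4129, 3 genes (Il1a, Nfkbiz, Tnfaip3) were lower in TRAIL- for EAE over naive (against 23.4%). In the clusters common to all libraries, an alternative chosen after seeing the data, 0 were higher and 0 lower in TRAIL- (against 9.83% and 8.95%), where the mean of Il1rn was under the 50 CPM floor.

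Of the log2 ratios whose interval left out 0, none of 88 recomputed values for EAE over naive in TRAIL+ changed sign, and 2 of 88 did in TRAIL- (Tnf and Il1b), both under the class rule that kept 644 cells; 1 of 77 (Il1b) and 1 of 65 (Tnf) did so for the gates in EAE and in naive mice, under that rule too. TMM, DESeq2 size factors, 1000 UMIs, 10% mitochondrial UMIs, 250 genes, Scrublet calls, the top cell, shared barcodes and a class by most marker UMIs, the last 2 chosen after seeing the data, changed no sign. The size of these log2 ratios was less stable than their sign. For EAE over naive, 22 of 88 recomputed values in TRAIL+ and 15 of 88 in TRAIL- fell outside the interval of the reported ratio. For the gates, 22 of 77 did so in EAE and 15 of 65 in naive mice. The intervals thus do not cover the choice of processing. Shares of cells moved in 61 of 64 recomputed values, since thinning sets them. Co-detection stayed within its interval in 37 of 44 recomputed values. In naive TRAIL-, 0 of 320 thinned microglia-like cells had an Il1rn UMI. By the rule of 3 counts this allows a share of cells with a UMI, at 500 UMIs per cell, of up to 0.938% (exact 95% upper limit 1.15%), and says nothing of cells that express it below that depth.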
